A study of Mus musculus with 2 samples.

Results

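Rn45s is the gene symbol of the 45S ribosomal RNA precursor. The copy described here is the one placed on chromosome 17 of the mouse assembly mm9, at chr17:39979001-39986000, with the assembled transcription unit at about chr17:39979940-39985780. Whether these 5841 bp hold the whole 45S precursor was not analysed here, and the unit below means this assembled stretch. It is 1 gene, and it held 2009 reads of 3503839 in the H2ABbd-labelled library and 14129 of 9266471 in the 5mC-labelled library. The region was chosen by its high read density in both of these libraries, so its levels are given as a description, with no test. Its flanks, 50 kb on each side (chr17:39929001-39979000 and chr17:39986001-40036000), served as local background.

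Ribosomal RNA genes lie in long tandem arrays on several mouse chromosomes, and RNA polymerase I transcribes each unit into a 45S precursor that is cut into the RNAs of both ribosomal subunits. In a given cell some copies are active and others are silent, and the silent ones are known for methylated promoters and closed chromatin. Reference assemblies leave out nearly all of these arrays, so reads from many copies can align to the few units or fragments that are assembled. The number of copies behind the Rn45s reads was not analysed here, and their level cannot be read as a level per copy.

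Both libraries came from mouse embryonic stem (ES) cells, pluripotent cultured cells derived from the early embryo. The cells were kept with the cytokine LIF and without a feeder layer. No treatment or genotype separates the groups, and the labels name no strain or line. In 1 library, crosslinked and sonicated chromatin was precipitated with a home-made rabbit antibody against mouse H2ABbd, a short variant of histone H2A (ChIP-seq). In the other, sonicated and denatured genomic DNA was precipitated with the mouse monoclonal antibody 33D3 against 5-methylcytosine (MeDIP-seq). Each group has 1 library and there is no input library, so no difference below has a replicate check and all intervals (95%) cover counting error only. They treat each read or start position as independent. PCR copies among the reads would make the intervals from all reads too narrow. Each deposited file is named for the antibody of the other sample. The sample labels were followed, and every direction between the libraries rests on them.

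The Rn45s region stood far above its surroundings in both libraries. In the H2ABbd-labelled library it held 287.0 reads per kb against 0.300 per kb in the flanks, and in the 5mC-labelled library 2018 against 1.57. Counted once per start position (a base and a strand), the density was 850.3 times that of the flanks in the H2ABbd-labelled library (564.3 to 1346) and 628.6 times in the 5mC-labelled library (534.9 to 743.6). The H2ABbd flanks held only 30 reads in all, so this first value is loosely set. The right flank held 16 of the 23 distinct H2ABbd positions, and the fold was 1397 against the left flank alone and 611.2 against the right. Against the mean 1 kb bin of chromosome 17 the folds were 266.9 and 237.3. The region made up 2.57% of the chromosome 17 reads of the H2ABbd-labelled library and 3.81% of those of the 5mC-labelled library.

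Of the 7 bins of 1 kb in the region, 7 lay at 10 times the chromosome mean or more in the H2ABbd-labelled library, as did 0.972% of all bins with a read on chromosomes 1 to 19 and X. For the 5mC-labelled library all 7 did so as well, against 0.0499% of all bins. All 7 passed in both libraries at once, against 0.0299% of all bins, and 6 passed 40 times the mean in both, against 0.00461%. Since these values chose the region, the counts say nothing further about it.

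**Figure D1:**
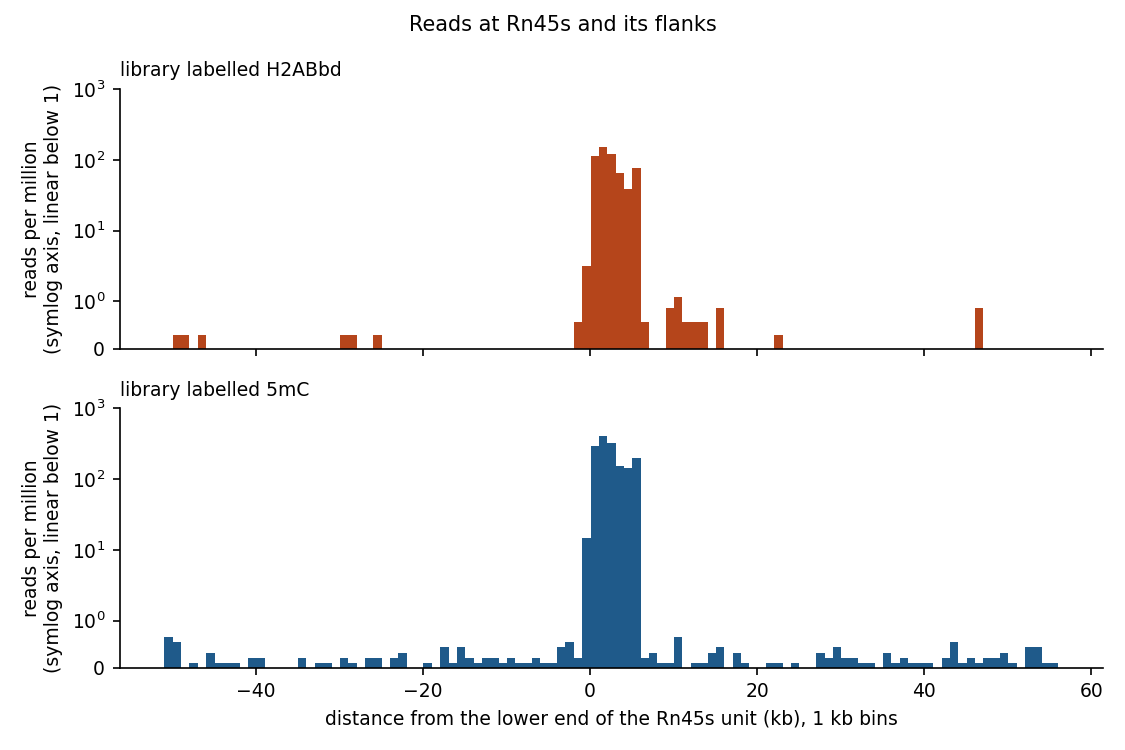
Reads scaled to 1000000 reads of each library (RPM) in 1 kb bins from 50 kb below the region to 50 kb above it (symlog axis, linear below 1). The bins of the Rn45s unit reach 151.5 (H2ABbd) and 403.4 (5mC) RPM, while flank bins hold at most 4 and 6 reads.

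The number of reads changed steeply at the ends of the unit. The kb before the unit held 4 read starts of the 5mC-labelled library and the first kb inside it 2642, and the last kb inside held 2464 against 3 in the kb after it. For the H2ABbd-labelled library these counts were 0 and 380 at the lower end and 345 and 3 at the upper end. The aligned reads that start in the unit reached from base 39979938 to base 39985774 in the H2ABbd-labelled library and from 39979941 to 39985776 in the 5mC-labelled library. These outermost aligned bases of the libraries differed by 3 bp at the lower end and 2 bp at the upper end. Only reads with a start inside the unit were used for them. At this depth that choice places them near its ends in both libraries, so their closeness is no further result. Few reads lay in the flanks: of 50 bins of 1 kb in each, the H2ABbd-labelled library had no read in 43 (left) and 41 (right), and the 5mC-labelled library none in 14 and 10.

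Inside the unit the mean depth was 14.4 reads of 42 bp per base in the H2ABbd-labelled library and 101.6 in the 5mC-labelled library. The reads covered 94.4% and 99.5% of its 5841 bases. The deepest base lay 1163 bp from the lower end in the H2ABbd-labelled library (47 reads) and 1298 bp from it in the 5mC-labelled library (329 reads). The longest stretch with no read start in either library was 27 bp, at chr17:39984345-39984371.

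The libraries had similar profiles along the unit. The level was highest in the second kb of the unit, lower in the upper part and higher again at the upper end. In 1 kb steps from chr17:39979001 the H2ABbd-labelled library held 11, 401, 531, 429, 229, 137 and 271 reads, and the 5mC-labelled library held 135, 2707, 3738, 2971, 1419, 1340 and 1819. The first of these steps holds only 61 bp of the unit. The step from 39981001 to 39982000 was thus the highest in both libraries, at 151.5 RPM (H2ABbd) and 403.4 (5mC). Leaving out the step at the lower edge, the lowest in both was the step from 39984001 to 39985000, at 39.1 and 144.6 RPM.

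In windows of 100 bp, 59 of which touch the unit, the H2ABbd-labelled library ranged from 0 to 74 reads (median 30.0) and the 5mC-labelled library from 35 to 610 (median 241.0). The windows with the most H2ABbd reads were those from 39982501 (74 reads, against 263 in the 5mC-labelled library), from 39981601 (73 and 416) and from 39981101 (70 and 422). The windows with the most 5mC reads were those from 39981201 (610 reads, against 54 in the H2ABbd-labelled library), from 39981301 (520 and 45) and from 39981001 (461 and 57). All 6 lie in the lower part of the unit, and the top 3 windows of the libraries are not the same. Of the 10 windows with the most reads in each library 4 were shared, 40.0% of each set.

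Across the 57 windows that lie wholly inside the unit, log2(RPM + 1) correlated between the libraries at Pearson r = 0.82 (Spearman rho = 0.83). Over all 70 windows of the region, with the 11 outside the unit, r was 0.92. This is a description: windows are not replicates, and both libraries share the sequence, the number of copies and the alignability of each window. By strand, the libraries correlated at 0.83 on the minus strand and 0.63 on the plus strand. Within a library the plus and minus profiles correlated at 0.45 (H2ABbd, the sparser library) and 0.70 (5mC).

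**Figure D2:**
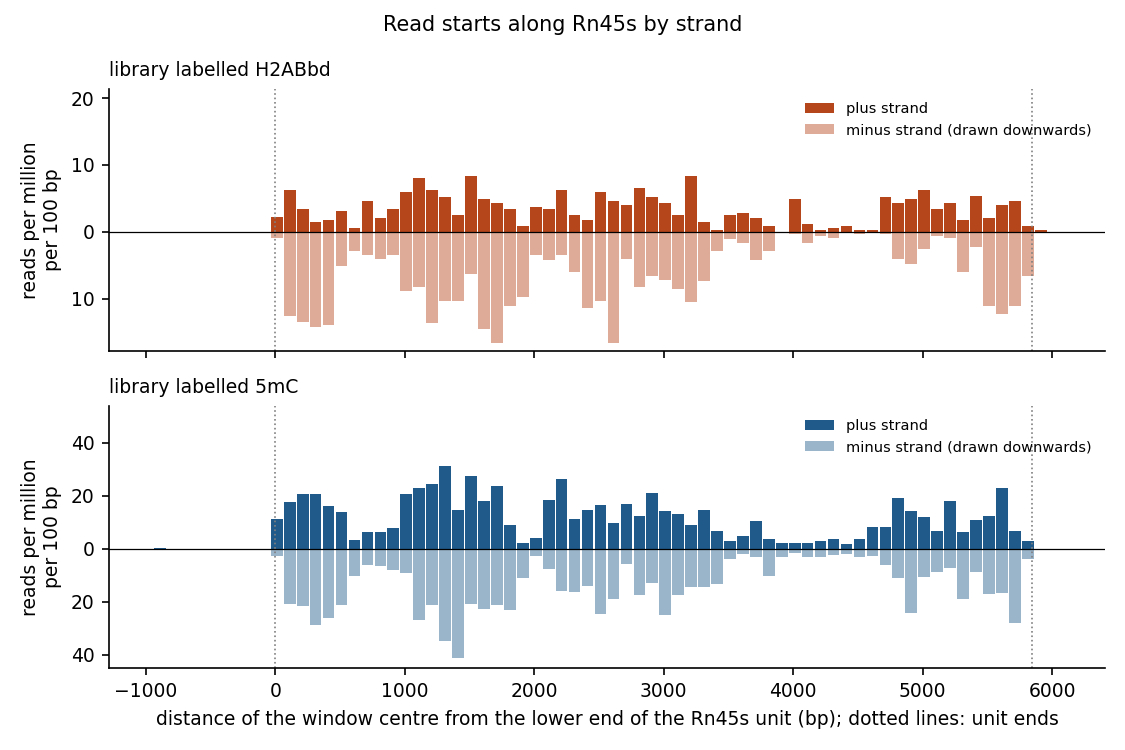
Read starts in RPM per 100 bp window along Rn45s, plus strand upwards and minus strand downwards, with the ends of the unit dotted. Both libraries rise and end at the unit and dip between 3861 and 4660 bp from its lower end. In the H2ABbd-labelled library the minus strand holds 64.6% of the reads.

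A stretch of low reads lay in the upper part of the unit, at chr17:39983801-39984600. It was picked as the 8 neighbouring windows with the lowest summed level after the profiles were seen, so it is described only. These windows held 42 reads of the H2ABbd-labelled library, from 0 to 18 per window, against a median of 34.0 in the other 51. They held 442 reads of the 5mC-labelled library, from 35 to 100 per window, against a median of 269.0. Windows outside the stretch held 7.34 times as many H2ABbd reads on average (5.41 to 10.2) and 4.86 times as many 5mC reads (4.42 to 5.35). The stretch was thus low in both libraries and held 2.09% and 3.13% of the reads of the unit. Its window with the fewest H2ABbd reads, chr17:39983801-39983900, had 0 reads of the H2ABbd-labelled library and 47 of the 5mC-labelled library. The fewest 5mC reads, 35, lay in the window from 39984301, which had 3 H2ABbd reads. With H2ABbd set to a floor of 3 reads in the former window, the level of the 5mC-labelled library there was 5.92-fold higher in RPM. The floor is a setting and not a limit from the counts, and no interval was computed for this fold. The former window was picked by its H2ABbd count, so the fold is a description only. Base composition and alignability of these windows were not analysed here.

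Which library was higher at Rn45s depended on how reads were counted. With all reads, the region stood at 573.4 RPM in the H2ABbd-labelled library and 1525 RPM in the 5mC-labelled library, a ratio of 0.376 (0.359 to 0.394). Counted once per start position, and scaled to distinct positions, it stood at 979.8 and 824.7 RPM, a ratio of 1.19 (1.12 to 1.26), so the order turned. Both totals move with other parts of the genome. Only 48.2% of H2ABbd reads lay outside the 1 kb bins at 40 times the mean or more in both libraries, against 90.6% of 5mC reads, and scaled to these reads the ratio at Rn45s was 0.706 (0.674 to 0.740). With the 5mC-labelled library thinned by expectation to the read number of the other, the ratio of distinct positions was 0.811. In the flanks the ratio was 0.505 with all reads (0.330 to 0.750) and 0.878 with distinct positions (0.540 to 1.37). Relative to the flanks, the ratio at Rn45s was 0.744 with all reads and 1.35 with distinct positions. No interval was computed for these 2 values. The flank intervals include the Rn45s ratios of 0.376 and 1.19, so the direction of these 2 values is not set. Of the values at Rn45s, the 2 from distinct positions without thinning lay above 1 and the others below.

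Start positions in the unit were far from used up in 1 library and were filling in the other. Of its 11682 start positions (both strands), 1368 (11.7%) held a read of the H2ABbd-labelled library and 6640 (56.8%) one of the 5mC-labelled library. In the 5mC-labelled library up to 96 of the 100 positions of a window were filled on 1 strand, at most 39 in the H2ABbd-labelled library. Where positions fill, further reads add few distinct ones, so the distinct count of the 5mC-labelled library understates its reads most in the windows with the most reads. Reads were spread over many positions rather than piled on a few. Of the filled positions 67.3% (H2ABbd) and 43.3% (5mC) held 1 read, and the fullest held 8 and 11 reads.

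The fullest positions of the H2ABbd-labelled library were 39980002 (8 reads), 39982916 (7 reads) and, with 6 reads each, 39981504, 39982426 and 39983275. All but 39982426 are on the minus strand. The 5mC-labelled library had 2, 3, 5, 2 and 4 reads at these positions. Its own fullest positions were 39981304 on the minus strand (11 reads) and, with 10 reads each, 39981199 and 39982125 on the plus strand and 39984871 on the minus strand. The H2ABbd-labelled library had 0 reads at each of these 4.

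Filled start positions of the libraries overlapped. Of the 1368 H2ABbd positions 1022 (74.7%) were also filled in the 5mC-labelled library, where 56.8% of all positions were, and these were 15.4% of its filled positions. The mean number of 5mC reads was 1.14 at positions without an H2ABbd read, 1.70 at positions with 1, 1.81 with 2 and 1.98 with 3 or more. In the other direction, the mean number of H2ABbd reads was 0.0972 at positions without a 5mC read and 0.308 at those with 4 or more. Positions of the same stretch share copy number and alignability, whose part in this was not tested.

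The share of reads that repeat a start position already seen was higher at Rn45s than on the rest of chromosome 17 in both libraries. Against the whole library it was lower for H2ABbd and higher for 5mC. For H2ABbd it was 31.9% at Rn45s (29.8 to 33.9), 21.0% on the rest of chromosome 17 and 60.1% over the whole library. For 5mC it was 53.0% at Rn45s (52.1 to 53.8), 7.72% on the rest of chromosome 17 and 13.1% over the whole library. This share grows with the local number of reads. With the 5mC-labelled library thinned by expectation to the total of the other library, about 5342 of its reads were left at Rn45s, with a share of 28.7% there and 10.1% over the library. Thinned to the 2009 reads that the H2ABbd-labelled library had at Rn45s, its share there was 12.8%, against 31.9% for H2ABbd. Single reads without molecular identifiers do not tell PCR copies from separate fragments with the same start.

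Other regions raised in both libraries spanned a wide range in reads per distinct position. Among 50 other regions at 40 times the mean or more in both, the number of H2ABbd reads per distinct position ranged from 1.05 to 285.3 (median 2.66), against 1.47 at Rn45s. For the 5mC-labelled library it ranged from 1.09 to 99.8 (median 3.50), against 2.13. These regions differ in length, from 1 to 39 kb, and the Rn45s region, at 7000 bp, is longer than most of them. In total reads, not scaled to length, 4 regions lay above Rn45s in the 5mC-labelled library and 11 in the H2ABbd-labelled library. These totals do not rank density, and no rank per kb was made for Rn45s. Its ratio of the libraries with all reads, 0.376, was lower than in 42 of the 50, where the median was 1.59. If the file names rather than the labels hold, the ratio is 2.66 and is higher than in these 42.

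**Figure D3:**
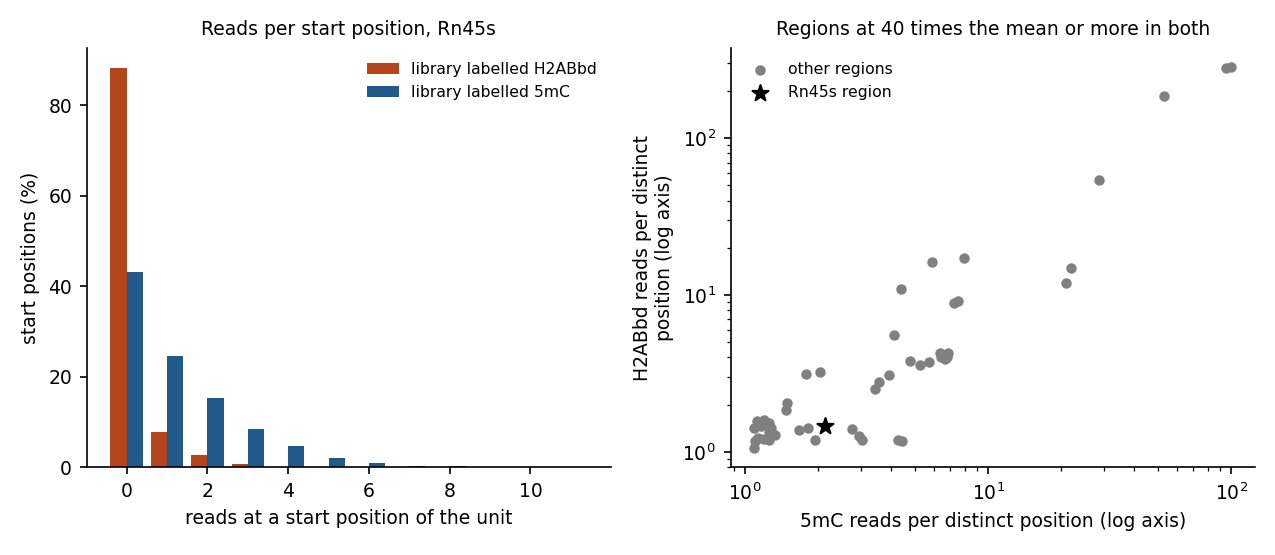
Left, share of the 11682 start positions of the Rn45s unit that hold 0 to 11 reads in each library. Right, reads per distinct position (log axes) in the Rn45s region (star, 2.13 and 1.47) and in 50 other regions at 40 times the mean or more in both libraries, which reach 99.8 and 285.3.

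The regions nearest to Rn45s in fold over the chromosome mean, by distinct positions in both libraries, were chr17:13743001-13746000, chr12:68160001-68161000 and chr9:35112001-35114000. They were taken from the other regions at 10 times the mean or more in both, by distance in log2 fold over the 2 libraries. The first stood at 142.8-fold (H2ABbd) and 224.1-fold (5mC), at a distance of 0.91 from Rn45s. The others stood at 283.3-fold and 84.5-fold and at 317.0-fold and 85.3-fold, at distances of 1.49 and 1.50. The likeness did not extend to all reads. Their ratios of the libraries were 0.0855, 3.35 and 7.83 against 0.376 at Rn45s, and with all reads none of the 3 was among the nearest.

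In 1 kb steps with all reads, the ratio of the libraries was nearly even along the unit, with 1 step below the others. With distinct positions the steps were less even, from 0.761 (0.613 to 0.936) to 1.38 (1.22 to 1.55). Windows of 100 bp, given below, ranged more widely. With all reads the ratio was 0.392, 0.376, 0.382, 0.427, 0.270 and 0.394 in the 6 steps from 39980001 on. The lowest value, in the step from 39984001, had an interval of 0.225 to 0.323, and it is named here as the lowest of the 6. This step holds most of the low stretch, where the ratio was 0.251 (0.179 to 0.345). In the first 3 kb of the region the ratio was 0.379 (0.354 to 0.406) and in the last 3 kb 0.368 (0.338 to 0.400). The first value was 1.03 times the last (0.925 to 1.15), an interval that includes 1. With distinct positions it was 1.32 times the last (1.15 to 1.51), while the 5mC-labelled library had filled between 38.7% and 71.6% of the start positions in the 6 steps from 39980001 on.

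Among the 18 windows of 100 bp with at least 50 reads in both libraries, the ratio ran from 0.234 to 0.801 (median 0.443). In 15 of them its interval included the ratio of the whole region. The H2ABbd count alone decided which windows passed this limit, which favours high ratios. Unit windows below the limit with reads in both libraries ran from 0.0264 (from 39984501, 1 H2ABbd read) to 1.29 (from 39983901, 18 H2ABbd reads). The count of 15 does not speak for these windows. Some of their intervals excluded the ratio of the whole region, on either side of it. Examples are the windows from 39981901 (1.03, 0.623 to 1.66) and from 39982101 (0.229, 0.157 to 0.326). The highest ratios were those of the windows from 39983101 (0.801, 0.598 to 1.06), 39982501 (0.744, 0.567 to 0.966) and 39980901 (0.502, 0.366 to 0.677). The lowest were those from 39981201 (0.234, 0.174 to 0.310), 39981401 (0.303, 0.222 to 0.406) and 39980201 (0.318, 0.236 to 0.422). These windows were picked by the ratio itself, so they show its range among the 18 windows only, and not a difference along the unit. Under the file names the order turns: the first 3 windows are the lowest, at 1.25, 1.34 and 1.99, and the last 3 the highest, at 4.27, 3.30 and 3.14.

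**Figure D4:**
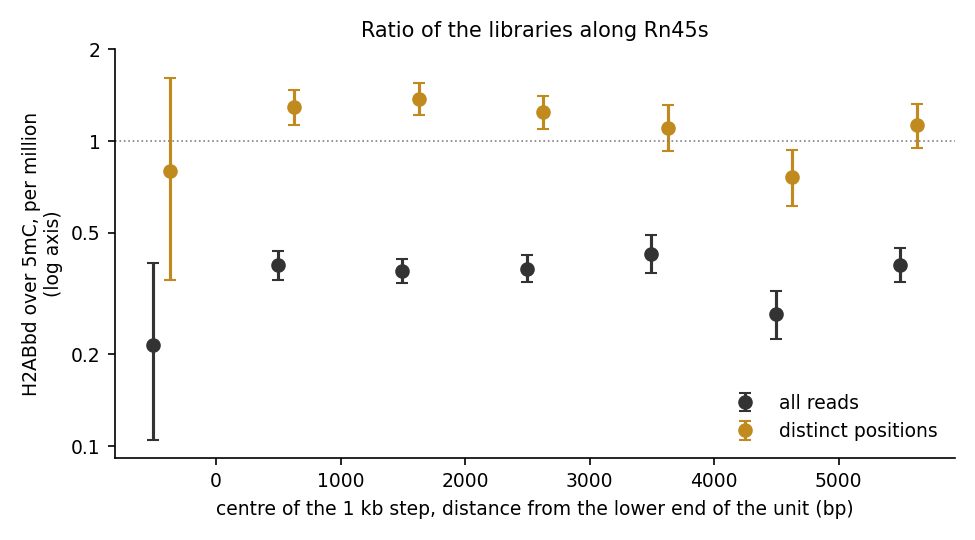
Ratio of the H2ABbd-labelled library to the 5mC-labelled library in RPM (log axis) in 1 kb steps of the region, with exact 95% intervals of the counts. With all reads the steps inside the unit lie between 0.270 and 0.427, and with distinct positions between 0.761 and 1.38.

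The strands were unequal at Rn45s, mostly in the H2ABbd-labelled library. There 1298 of 2009 reads, 64.6% (62.5 to 66.7), lay on the minus strand, against 44.9% on the rest of chromosome 17 and 42.3% over the library. Counted once per position the minus share was 62.6% (60.0 to 65.2), against 45.1% on the rest of the chromosome. In the 5mC-labelled library 52.8% of reads (52.0 to 53.6) and 50.7% of distinct positions (49.5 to 51.9) were on the minus strand, against 47.3% and 47.3% on the rest of chromosome 17. The minus share was thus higher than elsewhere on the chromosome in both libraries, by more in the H2ABbd-labelled library. Without 300 bp at each end of the unit the minus share was 62.7% in the H2ABbd-labelled library and 52.9% in the 5mC-labelled library.

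The excess of minus reads in the H2ABbd-labelled library was not even along the unit. It was 71.6% of reads in the step from 39980001 (66.9 to 75.9), 68.7, 63.6 and 60.7% in the next 3, 38.7% in the step from 39984001 (30.5 to 47.4) and 65.7% in the last (59.7 to 71.3). In the 5mC-labelled library the same steps ran from 47.2% to 55.9%, and the step from 39984001 was again the lowest. In the window from 39980201 the H2ABbd-labelled library had 5 reads on the plus and 50 on the minus strand, and the 5mC-labelled library 190 and 267. In all, 38 of the 59 windows of the unit had more minus than plus H2ABbd reads and 16 had fewer, and 33 and 26 did so for the 5mC-labelled library. In 28 windows minus reads led in both libraries.

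Unequal strands were not particular to Rn45s among the raised regions. In the 50 others at 40 times the mean or more in both libraries, the minus share of H2ABbd reads ran from 0.655% to 98.9% (median 50.3), and 10 of them had a higher share than Rn45s. For the 5mC-labelled library it ran from 11.2% to 71.4% (median 41.0), and 11 had a higher share. Counted once per position the ranges were narrower. The minus share then ran from 4.27% to 93.1% for H2ABbd (median 49.5), with 9 regions above Rn45s. For 5mC it ran from 32.0% to 67.6% (median 49.5), with 16 above Rn45s.

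The fullest class of spacing of plus and minus starts in the unit changed with the way of counting, though in the H2ABbd-labelled library the classes were close. Among distances of 0 to 299 bp from a plus start to a minus start further up, in classes of 10 bp, the fullest class by filled positions was 100 to 109 bp in the H2ABbd-labelled library and 40 to 49 bp in the 5mC-labelled library. It held 939 pairs of filled positions against a median class of 870.5 in the former, and 22731 against 21117 in the latter, each 1.08 times the median. With each pair of reads counted, the fullest class was 130 to 139 bp for H2ABbd (2071 pairs, 1.14 times the median class) and 70 to 79 bp for 5mC (122765 pairs, 1.16 times). For H2ABbd the class of 100 to 109 bp held 2067 pairs of reads, and that of 130 to 139 bp held 925 pairs of filled positions. The fullest class was picked as the largest of all classes, and its excess was not tested. Filled positions flatten this measure where nearly all positions of a window are filled.

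**Figure D5:**
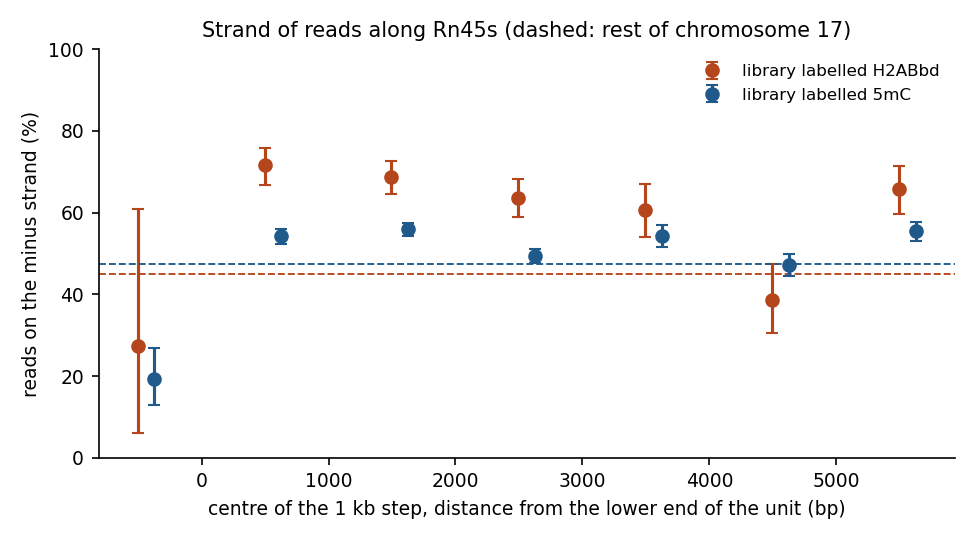
Percent of reads on the minus strand in 1 kb steps of the region, with exact 95% intervals, and dashed lines at the level of the rest of chromosome 17 (44.9% H2ABbd, 47.3% 5mC). The H2ABbd values lie between 60.7% and 71.6% in 5 of the 6 steps from the lower end of the unit on, and at 38.7% in the other.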

How the data were processed

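The submitters' processing notes name FastQC, Bowtie and the build mm9. How Bowtie placed reads that match several positions is not given in the sources used here, nor are versions. Such placement can change the level at a repeated gene such as Rn45s, and its part here was not tested. Per the labels' protocols the ChIP library had 20 PCR cycles and the MeDIP library 15. The deposited files hold 1 line of 6 fields per read of 42 bp. The deposited score is 255 on every line and was not used. Lines with broken separators (8 and 1), none of them at Rn45s, were left out.

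Reads were placed by their 5′ end on each strand and counted as all reads or once per start position. Levels are RPM, reads scaled to 1000000 reads of the library. Exact Clopper-Pearson intervals (95%) were used for shares, and exact binomial splits of the counts for ratios and folds. The interval of the ratio of ratios is on the log scale. Chromosome means leave out 1 kb bins that are empty in both libraries. Thinning is an expectation from the reads per position. The counting steps were tested on simulated data. Windows were named by reads, by ratio (at least 50 reads in both) and by the fullest positions (top 3, with ties). Regions were named by the nearest fold. The region and the settings were chosen with earlier results of these data known. The sequence of the unit was not used here. Computation used Python 3.11.15, numpy 2.4.6, scipy 1.17.1 and matplotlib 3.10.9.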

Additional observations from a re-analysis of the deposited data

How the results depend on the processing

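Of 57 alternative values 32 stayed within the main interval (for the correlation a Fisher interval), 23 moved out of it and 2 turned direction; 5 of them, without 300 bp at each end (2), relative to the flanks (2) and thinned at Rn45s, were chosen after seeing the data. The ratio of the libraries turned from 0.376 to 1.19 with distinct positions and to 1.35 with distinct positions relative to the flanks. It moved to 0.811 with the deeper library thinned as well, to 0.706 when scaled to reads outside the most raised bins and to 0.744 with all reads relative to the flanks. The 2 values relative to the flanks have no interval, and the few flank reads leave their direction unset. With distinct positions the share of the library was 0.0980% in place of 0.0573% (H2ABbd) and 0.0825% in place of 0.152% (5mC), the 5mC plus-strand share was 49.3%, and the first 3 kb had 1.32 times the ratio of the last. The H2ABbd fold over flanks was 1397 against the left flank and 266.9 against the chromosome mean. The 5mC fold was 1286 with all reads, 237.3 against the chromosome mean and 752.8 for the unit alone. Filled positions were 11.7% and 56.8% in the unit alone, 3.20% and 26.9% with at least 2 reads, and 27.2% (5mC) when thinned, where the repeated share was 28.7% (12.8% when thinned to the H2ABbd reads at Rn45s). The correlation was 0.98 in 500 bp windows and 0.82 inside the unit. Of the 3 nearest regions 0 stayed with all reads and 1, with the same bounds, at 40 times the mean. No paired analysis was possible because each group has 1 library. With 30 H2ABbd reads in 100 kb of flanks, depth limits the fold over flanks.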
